A study of Mus musculus with 9 samples.

Results

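The genes described here are the 5 core members of the angiopoietin and Tie receptor axis, *Tek*, *Tie1*, *Angpt1*, *Angpt2* and *Ptprb*, in endothelial cells (ECs) sorted from mouse bone marrow. They were chosen by name from the 17232 genes of the deposited expression table, and all 5 were found there. The cells came from *Nestin*-GFP transgenic mice, in which a *Nestin* promoter fragment drives a green fluorescent reporter. For flow cytometry of ECs the study stained PDPN by an antibody given into a vein shortly before the mice were killed, and the labels name no other treatment or genotype. Young adult mice of both sexes were used in the study, and the number of mice behind each library is not given in the sources used here. 3 populations of CD45- Ter119- CD31+ cells were sequenced, with 3 libraries in each, numbered 1, 3 and 4. *Nestin*-GFPbright arterial ECs (bright AECs) and *Nestin*-GFPdim arterial ECs (dim AECs) were both sorted as PDPN- and Sca-1bright and differed in the brightness of the reporter. Sinusoidal ECs (SECs) were sorted as PDPN+ and Sca-1dim. Values are reads scaled to transcript length and library size (RPKM), which the authors deposited on a log2 scale and which are given here without the log.

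*Tek* encodes Tie2, the receptor tyrosine kinase of ECs that binds the angiopoietins. *Tie1* encodes a related receptor that binds no angiopoietin with high affinity and modulates Tie2 in complexes with it. *Angpt1* encodes the ligand that activates Tie2 and keeps vessels quiescent and sealed, and is supplied mostly by pericytes, stromal cells, platelets and megakaryocytes. *Angpt2* encodes the ligand that ECs store in Weibel-Palade bodies and release on activation, and which in many settings opposes Angpt1. *Ptprb* encodes VE-PTP, an endothelial receptor phosphatase that removes phosphate from Tie2 and stabilises VE-cadherin. In bone marrow the axis is known for its part in vessel integrity and in the niche of haematopoietic stem cells.

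The receptor genes lie on the same chromosome. On GRCm38, *Tek* (ENSMUSG00000006386) occupies chr4:94739289-94874976 on the plus strand and *Tie1* (ENSMUSG00000033191) chr4:118471191-118490061 on the minus strand. *Ptprb* (ENSMUSG00000020154) lies at chr10:116301374-116389538 on the plus strand, *Angpt1* (ENSMUSG00000022309) at chr15:42424727-42676977 on the minus strand and *Angpt2* (ENSMUSG00000031465) at chr8:18690263-18741562 on the minus strand. *Angpt2* is nested in *Mcph1*, a gene of chromosome condensation on the other strand, and the annotated exons of the pair share 0 bases. *Angpt1* overlaps the antisense gene *Gm17473* over 737 of its 5205 annotated exon bases. Counting by strand is not stated for these libraries, so reads of *Angpt1* and of this antisense gene cannot be told apart there.

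RefSeq promoter sequences on build GRCm38.p6 matched 2 of the 5 genes, *Tek* and *Tie1*, and only these are shown for that reason. RefSeq windows hold the 250 bases before each RefSeq start site. For *Tek* this start site, at position 94739289, is also the start of the gene given above. For *Tie1* the RefSeq start site lies at position 118489849, so 212 bases of its window fall inside the gene as GENCODE annotates it, and the 38 bases before both start sites are printed. Letters run 5′ to 3′ on the gene's own strand (chr4:94739039-94739288, plus strand, for *Tek*, and chr4:118490062-118490099, minus strand, for *Tie1*). Capitals mark the letters GGAA or TTCC, the core bound by ETS factors, a family active in endothelial genes, read on either strand with no overlap between matches.
Tek: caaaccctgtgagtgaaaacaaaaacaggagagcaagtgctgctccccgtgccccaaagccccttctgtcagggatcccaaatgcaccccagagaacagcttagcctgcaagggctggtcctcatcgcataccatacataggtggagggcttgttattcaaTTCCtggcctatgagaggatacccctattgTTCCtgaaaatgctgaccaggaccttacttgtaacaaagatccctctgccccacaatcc
Tie1: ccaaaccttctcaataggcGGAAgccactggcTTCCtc

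The *Tek* window held 2 of these cores, both read as TTCC, starting 89 and 59 bases before the start site. The whole *Tie1* window held 7, of which 2 lie in the printed bases and 5 inside the GENCODE gene. The core is short and common. Of 32851 RefSeq promoter windows of this length, 76.8% held at least as many cores as *Tek* and 3.82% at least as many as *Tie1*, with a median of 3, and this share for *Tie1* rests on the RefSeq start site. The letters TATAAA, searched on both strands, occurred 0 times in the *Tek* window and 0 times in the *Tie1* window, and in 12.4% of all windows. These matches describe the letters and are no evidence of binding.

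The libraries held 13895090 to 73474534 reads in listed genes. Sorting was tracked by marker lists that contain genes the study itself reported from these libraries. Of 8 arterial markers 6 were higher in AECs, and of 8 sinusoidal markers 6 were lower. Taken apart, 6 arterial markers were higher in bright AECs and 6 in dim AECs. Of the sinusoidal markers 6 were called lower in bright AECs, but only 2 in dim AECs. The summed sinusoidal list was 805 RPKM in dim AEC library 3 and 58.5 to 368 RPKM in the other AEC libraries, against 2090 to 3610 RPKM in SECs. The libraries numbered 1 stood apart. Neutrophil markers took 16.3% of reads in bright AEC library 1, 12.9% in dim AEC library 1 and 8.28% in SEC library 1, and at most 3.98% in the other 6. The summed pan-endothelial list was 605 RPKM in bright AEC library 1 and 1120 RPKM in dim AEC library 1, against 1830 to 2680 RPKM in the other AEC libraries and 1420 to 2690 RPKM in SECs. Results are therefore also given for libraries 3 and 4 alone. The part of blood cell RNA in the levels below was not tested, and in sorted bulk samples fewer cells of a type and less RNA per cell cannot be told apart. Nothing in the labels ties a library to its own mice, so p values measure the spread between these libraries.

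Both receptors and the phosphatase were abundant in all 3 populations, and the ligands were not. By mean RPKM over the 9 libraries, *Tie1* ranked 297th, *Tek* 459th and *Ptprb* 922nd of 17232 genes, while *Angpt2* ranked 7533rd and *Angpt1* 11420th. The plot of RPKM by library shows the 5 genes on log axes.

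**Figure D1:**
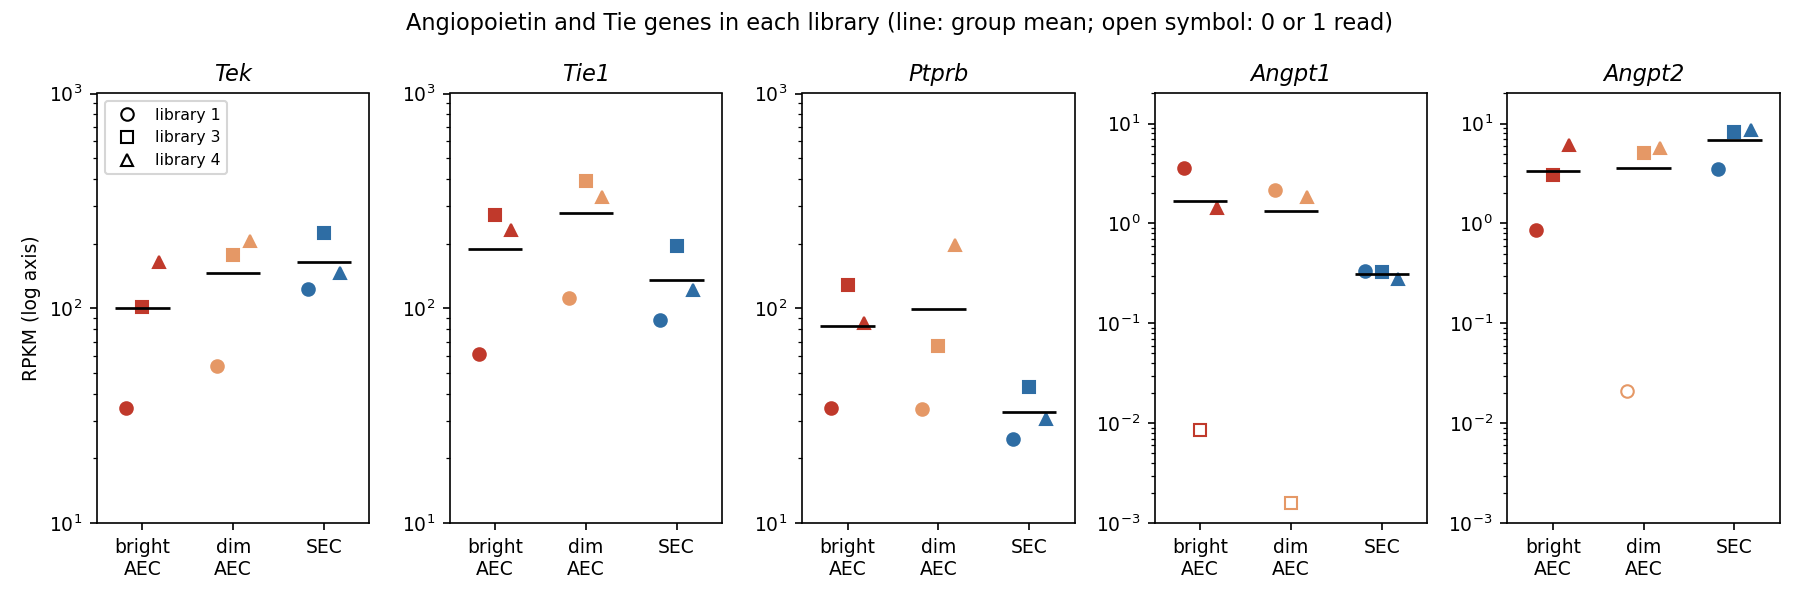
RPKM (log axis) of *Tek*, *Tie1*, *Ptprb*, *Angpt1* and *Angpt2* in the 3 libraries each of bright AECs, dim AECs and SECs, with the symbol giving the library number and the line the group mean. *Tie1* reached 391.6 RPKM in dim AEC library 3, *Ptprb* stayed between 24.7 and 43.1 RPKM in SECs, and open symbols mark the 3 AEC libraries in which a ligand had 0 or 1 read.

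*Tek*, the angiopoietin receptor, was measured at 34.5, 101.2 and 164.5 RPKM in bright AEC libraries 1, 3 and 4. It had 53.95, 177.9 and 204.9 RPKM in dim AECs, against 123.5, 223.7 and 146.3 RPKM in SECs. The lowest values were those of both AEC libraries numbered 1, and the groups overlapped. Bright AECs averaged 100.1 ± 65.01 RPKM, dim AECs 145.6 ± 80.5 RPKM and SECs 164.5 ± 52.5 RPKM (mean ± SD, n = 3 each).

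*Tie1*, the receptor that partners Tie2, had 61.3, 272.3 and 230.6 RPKM in bright AECs. Dim AECs had 112.1, 391.6 and 328.9 RPKM, against 88.1, 195.7 and 122.2 RPKM in SECs. Each AEC library numbered 3 or 4 lay above each SEC library, while the AEC libraries numbered 1 lay within or below the SEC range. Bright AECs averaged 188 ± 112 RPKM, dim AECs 278 ± 147 RPKM and SECs 135 ± 54.98 RPKM (mean ± SD, n = 3 each). The order of means for *Tie1* thus put dim AECs first and SECs last, the order for *Tek* put SECs first and bright AECs last, and no neighbouring groups in either order differed beyond their spread.

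*Ptprb*, the phosphatase that acts on Tie2, had 34.5, 128 and 85.7 RPKM in bright AECs. Dim AECs had 34.05, 66.6 and 197.6 RPKM, against 24.7, 43.1 and 30.7 RPKM in SECs. The SEC libraries were close together, and 4 of the 6 AEC libraries exceeded them all. The other 2, again those numbered 1, fell between SEC libraries 4 and 3. Bright AECs averaged 82.7 ± 46.8 RPKM, dim AECs 99.4 ± 86.6 RPKM and SECs 32.8 ± 9.40 RPKM (mean ± SD, n = 3 each).

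*Angpt1*, the activating ligand, was near the limit of detection in some AEC libraries and low in the rest. Its reads numbered 695, 1 and 130 in bright AEC libraries 1, 3 and 4 and 129, 0 and 328 in dim AECs, against 55, 97 and 58 in SECs. In RPKM these were 3.56, 0.00857 and 1.41 in bright AECs and 2.15, a count of 0 and 1.85 in dim AECs, against 0.331, 0.327 and 0.276 in SECs. All 3 SEC libraries thus held a similar trace. The AEC libraries split by number, with libraries 1 and 4 above all SECs and libraries 3 below them. The count of 0 in dim AEC library 3 allows up to 0.0447 RPKM, the level of 3 reads, which covers counting error only.

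Marker lists of other cell types moved with *Angpt1* in part. Megakaryocyte and platelet markers summed to 1690 RPKM in bright AEC library 1, where *Angpt1* was highest, and to 9.65 to 62.9 RPKM in the other 8 libraries. *Lepr* stromal markers summed to 2.89 RPKM in dim AEC library 1, where *Angpt1* was 2.15 RPKM, and to 15.6 to 37.2 RPKM in SECs, where it was at most 0.331 RPKM. Smooth muscle and pericyte markers summed to 54.7 RPKM in dim AEC library 1 and to 363 RPKM in dim AEC library 3, which had no *Angpt1* read. Of these 363 RPKM the potassium channel gene *Kcnj8* alone made up 321 RPKM. In SECs that list summed to 318 to 665 RPKM, of which *Kcnj8* alone averaged 463 RPKM. Of its 8 genes 2 were higher in AECs and 1 lower. Stem and progenitor cell markers summed to 138, 21.2 and 35.3 RPKM in bright AEC libraries 1, 3 and 4. They summed to 77.8, 23.7 and 32 RPKM in dim AECs, so they were highest in libraries 1 and lowest in libraries 3, as *Angpt1* was. In SECs they summed to 74.9, 8.22 and 34.5 RPKM, where *Angpt1* was similar in all libraries. The part of these cells in *Angpt1* was not tested.

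*Angpt2*, the ligand made by ECs themselves, had 0.869, 3.08 and 6.11 RPKM in bright AECs. Dim AECs had 0.0211, 5.11 and 5.67 RPKM, against 3.50, 8.31 and 8.53 RPKM in SECs. Its reads numbered 147, 383 and 487 in bright AECs and 1, 297 and 871 in dim AECs, against 506, 2147 and 1565 in SECs. SEC libraries 3 and 4 were the highest of the 9, and the AEC libraries numbered 1 were the lowest. Bright AECs averaged 3.35 ± 2.63 RPKM, dim AECs 3.597 ± 3.11 RPKM and SECs 6.78 ± 2.85 RPKM (mean ± SD, n = 3 each). *Mcph1*, in which *Angpt2* is nested, had 0.204 to 2.38 RPKM in AECs and 0.892 to 1.96 RPKM in SECs. Its lowest level, in dim AEC library 3, stood beside 5.11 RPKM of *Angpt2*.

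The question of whether arterial and sinusoidal ECs differ in these genes was tested with limma on log2(RPKM + 1), over all 16364 genes that reached 0.1 RPKM in 3 or more libraries, with Benjamini-Hochberg adjustment. All 5 genes passed that filter. Adding 1 RPKM shrinks differences between low values, and for *Angpt1* both the size and the sign depended on the scale, as given below. AECs against SECs gave a log2 fold change of 1.20 for *Ptprb* (95% confidence interval -0.11 to 2.51, limma adjusted p = 0.403). *Tie1* had 0.60 (-0.71 to 1.92, adjusted p = 0.815) and *Tek* had -0.63 (-1.93 to 0.66, adjusted p = 0.788). *Angpt1* had 0.72 (-0.43 to 1.86, adjusted p = 0.661), against 0.35 by voom on recovered reads and -0.28 on the deposited log2 values, and *Angpt2* had -1.02 (-2.57 to 0.52, adjusted p = 0.631). Thus 0 of the 5 genes passed an adjusted p of 0.05, beside 4.93% of all genes tested. By limma 0 also had an unadjusted p under 0.05, beside 2407 of the 16364 genes. By voom on the reads recovered from the deposited values 0 were called. There 0 had an unadjusted p under 0.05, beside 2778 of 16363 genes. Other settings did give an unadjusted p under 0.05. With the replicate number as a block 3 of the 5 had one, beside 3266 of the 16364 genes. The 3 were *Angpt2* (95% confidence interval -1.78 to -0.27, limma adjusted p = 0.115), *Ptprb* (0.29 to 2.10, adjusted p = 0.124) and *Tie1* (0.03 to 1.18, adjusted p = 0.224). With weights per library 2 had one, beside 3728 of the 16364 genes. The 2 were *Ptprb* (0.52 to 2.22, limma adjusted p = 0.0516) and *Tie1* (0.09 to 1.87, adjusted p = 0.173). In both settings 0 of the 5 were called after adjustment. *Angpt2* was lower, and *Ptprb* higher, in 6 of 6 AEC libraries than in the SEC library of the same number. *Tie1* was higher in 5 of 6 and *Angpt1* in 4 of 6, and *Tek* was lower in 4 of 6. Each SEC library serves for both AEC fractions here, and the share of all genes with 6 of 6 was not computed, so these counts are descriptive. In 0 of the 5 were the 6 AEC and 3 SEC libraries free of overlap, which held for 10.4% of all genes. The intervals are wide, reaching 1.86 log2 units or more away from 0 for each gene, so equal expression is not shown.

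The AEC fractions were then taken apart. Bright AECs against SECs, with 4.58% of all genes called, and dim AECs against SECs, with 1.95% called, share the SEC libraries. For *Ptprb* the log2 fold changes were 1.16 in bright AECs and 1.24 in dim AECs, and for *Angpt2* they were -0.96 and -1.09. *Angpt1* had 0.77 in bright AECs and 0.67 in dim AECs, *Tie1* had 0.29 and 0.92, and *Tek* had -0.93 and -0.34. In both comparisons 0 of the 5 genes were called by limma or by voom, and 0 had an unadjusted p under 0.05 by either. With the replicate block, dim AECs against SECs had 3.94% of all genes called and again 0 of the 5. There 3 of the 5 had an unadjusted p under 0.05 by limma, beside 2486 of 16364 genes. Between bright and dim AECs 0% of all genes were called by limma, with 803 at an unadjusted p under 0.05, and 0 by voom. There the log2 fold changes were -0.58 for *Tek*, -0.63 for *Tie1*, -0.08 for *Ptprb*, 0.10 for *Angpt1* and 0.13 for *Angpt2*, and again 0 were called by limma or by voom, with 0 under an unadjusted p of 0.05. With the block 0.0183% of all genes were called there, and 0 of the 5.

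With libraries 3 and 4 alone the intervals were narrower for *Tie1*, *Tek*, *Ptprb* and *Angpt2*. *Tie1* then had a log2 fold change of 0.95 in AECs against SECs (95% confidence interval 0.24 to 1.66, limma adjusted p = 0.18) and *Ptprb* one of 1.57 (0.39 to 2.75, adjusted p = 0.182). *Angpt2* had -0.68 (-1.47 to 0.10, adjusted p = 0.414), *Tek* -0.20 (-0.98 to 0.57, adjusted p = 0.894) and *Angpt1* 0.32 (-0.97 to 1.60, adjusted p = 0.903). Again 0 of the 5 genes were called, beside 3.59% of all genes in this setting. In 3 of the 5, *Tie1*, *Ptprb* and *Angpt2*, the 4 AEC libraries did not overlap the 2 SEC libraries, beside 23.4% of all genes. The libraries numbered 1 hold 1 sample of each group and give no test of their own.

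**Figure D2:**
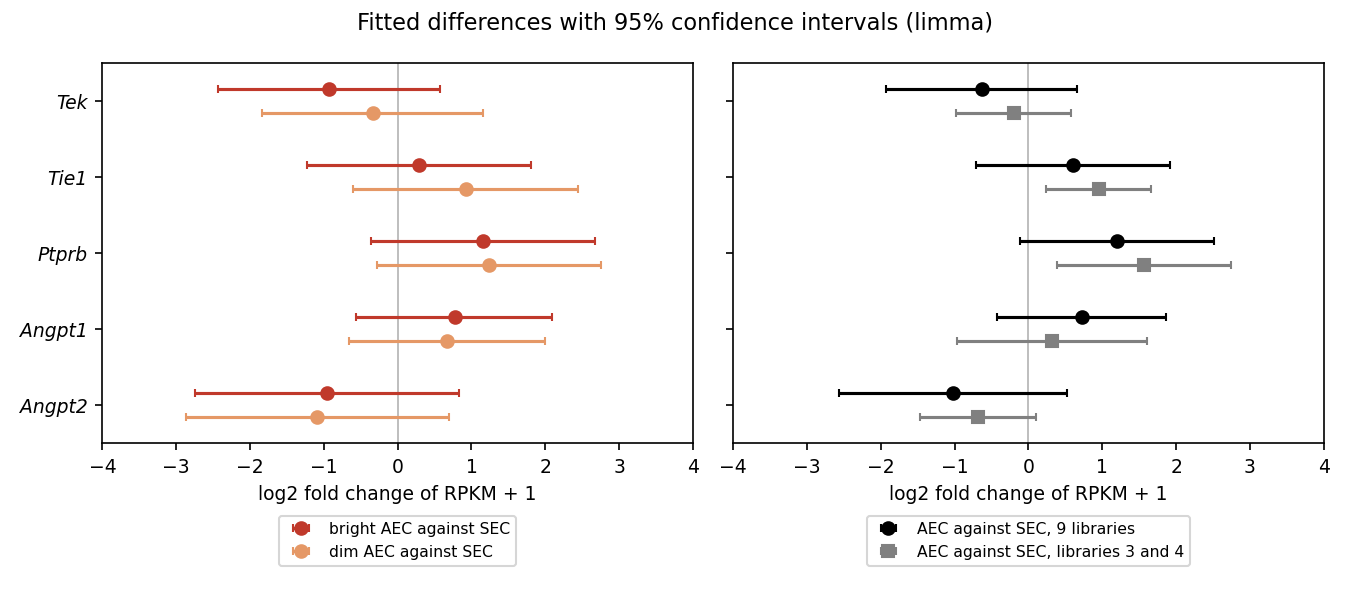
Fitted log2 fold changes of RPKM + 1 with 95% confidence intervals (limma), for bright AECs and dim AECs against SECs (left) and for all AECs against SECs with 9 libraries or with libraries 3 and 4 (right). With 9 libraries each interval includes 0, and with libraries 3 and 4 those of *Tie1* (0.24 to 1.66) and *Ptprb* (0.39 to 2.75) lie above 0.

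Plain RPKM ratios of members within a library do not depend on the scaling between libraries, and 3 were compared. The tests used RPKM + 1, which does depend on it where values are low, as for *Angpt1* and *Angpt2*. The ratios showed a shift in the balance of the receptors that the single genes did not. The share of other gene pairs that separate AECs from SECs as fully was not computed, and other pairs of members were not tested. The shift is therefore not shown to be particular to these genes. Among 8 pan-endothelial markers, log2 fold changes in AECs against SECs ran from -0.92 (*Eng*) to 1.12 (*Pecam1*), with 0 called by limma. The ratio of *Tie1* to *Tek* in RPKM was 1.78, 2.69 and 1.40 in bright AEC libraries 1, 3 and 4 and 2.08, 2.20 and 1.60 in dim AECs, against 0.714, 0.875 and 0.835 in SECs. In each AEC library *Tie1* exceeded *Tek*, and in each SEC library *Tek* exceeded *Tie1*, also in the libraries numbered 1. On the log2(RPKM + 1) scale AECs averaged 0.93 ± 0.34 (mean ± SD, n = 6) and SECs -0.31 ± 0.15 (n = 3), a difference of 1.24. The two-sided exact permutation test over 84 regroupings gave p = 0.0119, the smallest they can give (adjusted p = 0.0179 over the 3 ratios). Each AEC fraction alone differed from SECs by 1.22 (bright) and 1.26 (dim) with no overlap, where an exact permutation test of 3 against 3 libraries cannot go below p = 0.1, and both gave that value. Bright and dim AECs differed by -0.05 (exact permutation p = 1). Dim AEC library 3, which held the most sinusoidal marker RNA among AECs, had a ratio of 2.20, within the range of the other AEC libraries. The part of sinusoidal RNA in the ratios was not tested.

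The ratio of *Ptprb* to *Tek*, the phosphatase over its substrate receptor, was also higher in AECs. It was 1, 1.26 and 0.521 in bright AECs and 0.631, 0.375 and 0.964 in dim AECs, against 0.200, 0.193 and 0.210 in SECs. The SEC values were nearly identical, and the AEC value nearest to them was that of dim AEC library 3. On the same log2 scale AECs averaged -0.45 ± 0.66 (mean ± SD, n = 6) and SECs -2.28 ± 0.07 (n = 3), a difference of 1.83 (two-sided exact permutation p = 0.0119, the smallest they can give, adjusted p = 0.0179). Bright and dim AECs differed by 0.50 (exact permutation p = 0.4). Both ratios have *Tek* as denominator and are not independent of each other. With libraries 3 and 4 alone the differences were 1.15 for *Tie1* to *Tek* (exact permutation p = 0.0667) and 1.77 for *Ptprb* to *Tek* (p = 0.133), where 0.0667 is the smallest that 15 regroupings can give.

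The balance of the ligands did not pass the test over all libraries. The ratio of *Angpt2* to *Angpt1* was 0.244 in bright AEC library 1, 4.32 in bright AEC library 4 and 3.06 in dim AEC library 4, against 10.6, 25.4 and 30.9 in SECs. In the other 3 AEC libraries a ligand had 0 or 1 read, so no ratio is given. Among these, bright AEC library 3 and dim AEC library 3 had 383 and 297 reads of *Angpt2* against 1 and 0 of *Angpt1*. In plain RPKM their balance thus lay further towards *Angpt2* than in SECs, opposite to the AEC ratios given. *Angpt2* thus exceeded *Angpt1* in all SEC libraries and in the AEC libraries numbered 3 and 4, while both AEC libraries numbered 1 held more *Angpt1*. Megakaryocyte and platelet markers summed to 1690 RPKM in the bright one of these and to 22.3 RPKM in the dim one, which had 129 reads of *Angpt1* and 1 of *Angpt2*. On the log2(RPKM + 1) scale AECs averaged 0.75 ± 1.77 (mean ± SD, n = 6) and SECs 2.49 ± 0.64 (n = 3), a difference of -1.74 (two-sided exact permutation p = 0.131, adjusted p = 0.131). Regrouping only within library numbers changed this call (exact permutation p = 0.037, the smallest that 27 such regroupings can give). With libraries 3 and 4 alone the difference was -1.0 (exact permutation p = 0.133). On the deposited log2 values without a pseudocount it was -1.81 (exact permutation p = 0.667).

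**Figure D3:**
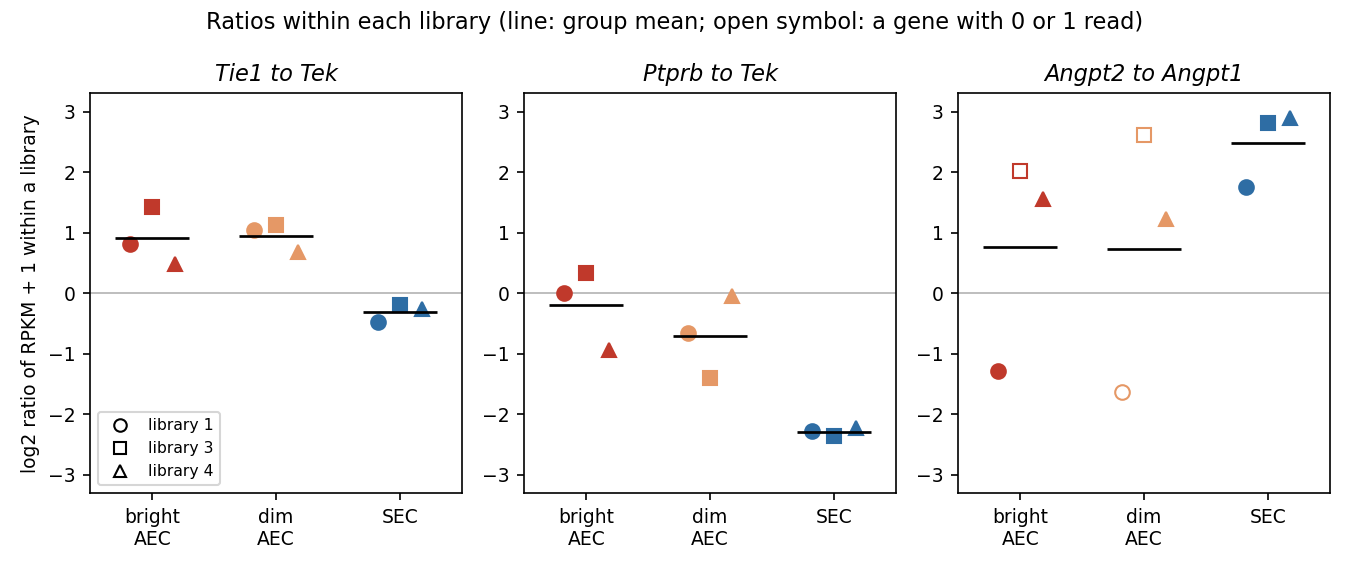
Log2 ratio of RPKM + 1 within each library for *Tie1* to *Tek*, *Ptprb* to *Tek* and *Angpt2* to *Angpt1* in bright AECs, dim AECs and SECs, with lines at the group means and open symbols where a gene had 0 or 1 read. For *Tie1* to *Tek* the 6 AEC libraries lie between 0.49 and 1.42 and the 3 SEC libraries between -0.48 and -0.19.

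In shares of the summed RPKM of the 5 genes, *Tek* made up 20.1 to 33.7% in AECs and 47.5 to 51.4% in SECs. *Tie1* made up 44.5 to 61.1% in AECs and 36.7 to 41.5% in SECs, and *Ptprb* 10.4 to 26.7% in AECs and 9.15 to 10.3% in SECs. *Angpt2* reached at most 1.25% in AECs and 1.46 to 2.77% in SECs. *Angpt1* reached at most 2.64% in AECs, in bright AEC library 1, and at most 0.138% in SECs.

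Other genes of the axis were taken from 9 lists of known function, of which 64 genes were tested. Their log2 fold changes in AECs against SECs had list medians between -0.22 and 0.63, beside 0.60 for the 5 core members and 0.03 for all genes tested, and 4 genes were called. This share of 6.25% is close to the 4.93% of all genes called, so the lists as a whole are not set apart by it. In 6 of the lists 0 genes were called by limma. These were 19 adaptors and PI3K-Akt genes downstream of Tie2, 8 Foxo factors and targets, 3 proteases that shed Tie receptors, 4 binding partners of VE-PTP, 4 integrin subunits that bind angiopoietins and 2 phosphatases related to *Ptprb*. Of these 40 genes 9 had an unadjusted p under 0.05, and by voom 0 were called and 10 had one. Over all genes 2407 of 16364 had one by limma and 2778 of 16363 by voom. Among the partners, *Cdh5*, which encodes VE-cadherin, stood at 141 ± 75.9 RPKM in the 6 AEC libraries and at 146 ± 49.2 RPKM in the 3 SEC libraries (mean ± SD, as for the genes that follow). *Kdr*, which encodes the receptor VEGFR2, averaged 152 ± 112 RPKM in AECs and 280 ± 62.4 RPKM in SECs (limma adjusted p = 0.389). *Nos3*, the endothelial nitric oxide synthase that Akt phosphorylates, averaged 41.8 ± 24.6 RPKM in AECs and 7.76 ± 2.499 RPKM in SECs and missed the threshold (limma adjusted p = 0.0858).

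Among other ligands of the family, *Angpt4*, the third angiopoietin, had 5 reads in bright AEC library 4, 17 in dim AEC library 1, 7 in SEC library 1 and 0 in the other 6 libraries, and was too low to be tested. *Angptl4*, an angiopoietin-like inhibitor of lipoprotein lipase that is not a Tie2 ligand, was lower in AECs. It had 5.75, 37.2 and 21.5 RPKM in bright AECs and 22.0, 117.6 and 44.9 RPKM in dim AECs, against 162, 479 and 532 RPKM in SECs. The log2 fold change was -3.53 (limma adjusted p = 0.024), and the call was lost in 4 of 21 alternatives, all of them the leaving out of 1 library (bright AEC 4, dim AEC 4, SEC 3 or SEC 4). Of the 5 tested genes of this list 1 was lower and 0 were higher.

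Genes of Weibel-Palade bodies, the granules that store Angpt2, went both ways, with 1 of 8 higher and 1 lower in AECs. *Vwf*, which encodes von Willebrand factor, the main cargo, had 5.69, 4.94 and 5.08 RPKM in bright AECs and 3.86, 6.69 and 39.7 RPKM in dim AECs, against 0.208, 0.389 and 0.038 RPKM in SECs (log2 fold change 2.81, limma adjusted p = 0.0305). *Selp*, the P-selectin gene whose higher level in SECs the study itself reported, had 11, 0.56 and 4.01 RPKM in bright AECs and 5.05, 79.5 and 43.9 RPKM in dim AECs, against 129, 284 and 177 RPKM in SECs (log2 fold change -4.06, limma adjusted p = 0.0348). *Vwf* lost its call in 7 of 21 alternatives, among them libraries 3 and 4 alone and the leaving out of bright AEC 3 or 4 or of any SEC library. *Selp* lost its call in 8, among them voom and the leaving out of bright AEC 3 or 4, dim AEC 4 or any SEC library.

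Of 11 transcription factors known to bind or drive genes of the axis, 0 were higher and 1 lower in AECs. *Gata3*, a GATA factor known to sustain *Tek* in ECs of large vessels, averaged 0.330 ± 0.412 RPKM in the 6 AEC libraries against 4.29 ± 1.63 RPKM in the 3 SEC libraries (mean ± SD). The AEC libraries held 0.494, 0.0837 and 0.211 RPKM (bright) and a count of 0, 0.0973 and 1.09 RPKM (dim), against 2.62, 5.88 and 4.37 RPKM in SECs, with no overlap (log2 fold change -1.99, limma adjusted p = 0.00772). Its call was kept in 19 of 21 alternatives and lost on the deposited log2 values and with the pan-endothelial markers as scale. The ETS factors of the list, whose core is marked in the promoters above, were not called. *Ets1* averaged 92.7 ± 36.8 RPKM in AECs and 109 ± 26.65 RPKM in SECs, *Fli1* 66.9 ± 14.4 RPKM in AECs and 50.1 ± 6.456 RPKM in SECs, *Erg* 13.6 ± 4.96 RPKM in AECs and 14.8 ± 6.344 RPKM in SECs, and *Elf1* 29.9 ± 7.62 RPKM in AECs and 14.0 ± 4.353 RPKM in SECs (mean ± SD, n = 6 AEC and 3 SEC libraries).

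**Figure D4:**
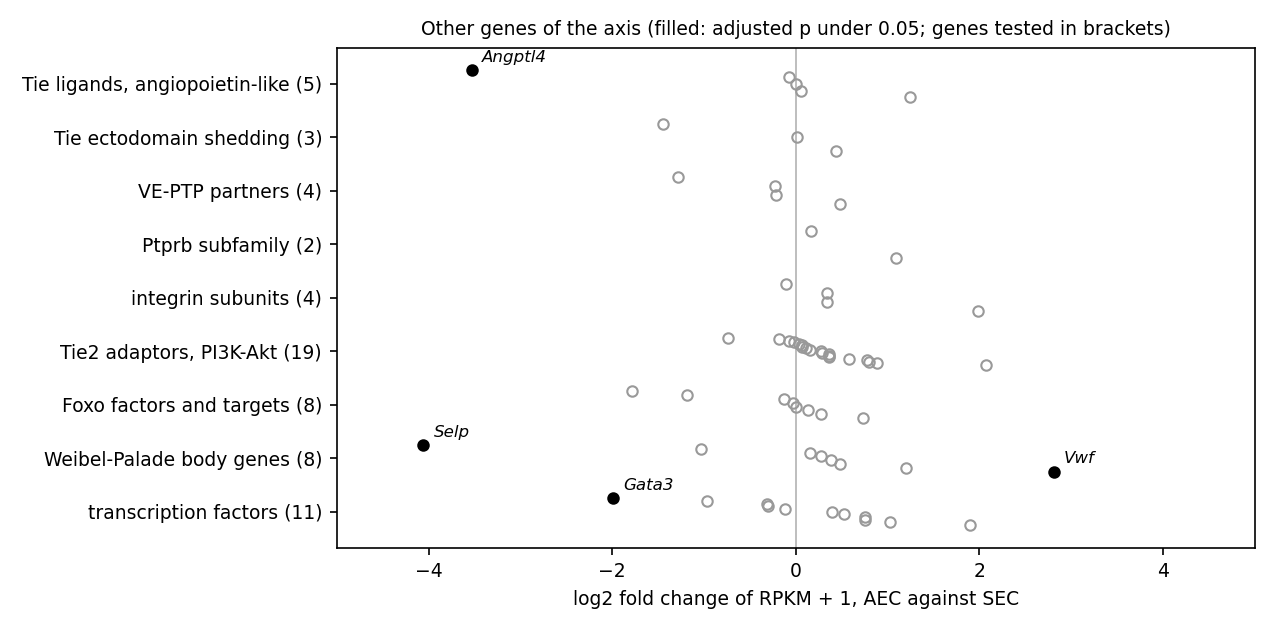
Log2 fold change of RPKM + 1 in AECs against SECs for the 64 tested genes of the 9 axis lists, with the number tested in brackets and filled points where the limma adjusted p was under 0.05. The called genes are *Vwf* (2.81), *Gata3* (-1.99), *Angptl4* (-3.53) and *Selp* (-4.06).

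The genes whose levels followed each member most closely over the 9 libraries were taken from 4990 genes with a mean of at least 10 RPKM, by Pearson's r of log2(RPKM + 1). These values are descriptive, since the points also share technical traits, such as the blood cell RNA of the libraries numbered 1. Nearest to *Tek* were *Cpne8* (r = 0.967), *Itga1* (r = 0.965) and *Osmr* (r = 0.963). Nearest to *Tie1* were *Tnfaip1* (r = 0.984), *Nrp1* (r = 0.975) and *Cd93* (r = 0.973), of which *Nrp1* encodes a VEGF co-receptor and *Cd93* an endothelial surface lectin. *Ptprb* was nearest to *Tns1* (r = 0.989), *Sptbn1* (r = 0.979) and *Clstn1* (r = 0.975). *Angpt2* was nearest to *Gadd45g* (r = 0.95), *Mbtps1* (r = 0.94) and *Icam1* (r = 0.939), and *Angpt1* to *D8Ertd738e* (r = 0.939), *Ccndbp1* (r = 0.919) and *Xrcc1* (r = 0.908). Among the members themselves, *Tek* followed *Angpt2* (r = 0.889) more closely than *Tie1* (r = 0.719) or *Ptprb* (r = 0.398), and *Tie1* followed *Ptprb* with r = 0.8.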

How the data were processed

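RNA of the 9 sorted libraries was amplified from low input and sequenced in single reads. According to their methods, the authors used STAR for alignment and HTSeq for counting, dropped genes with few reads, applied TMM factors from edgeR 3.12.0, and deposited the resulting log2 RPKM of 17232 genes. Per the labels the genome build is mm9. Since 99.98% of 17087 listed genes overlapped their GENCODE M21 entry on GRCm38, positions are given on GRCm38. Read numbers were recovered from the small prior that stands under the log, and 99.994% of 155088 values came out whole (tolerance 0.0001 reads), all but those of *Bmx*. Such reads are not independent molecules, so depth limits counting error only.

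Groups followed the labels. Replicate numbers 1, 3 and 4 recur in each group. Deviations of same-numbered libraries from their group means correlated over genes with r of 0.155 to 0.784 between bright and dim AECs and 0.122 to 0.778 between dim AECs and SECs, above 0.1 in every pair, and with r of -0.212 to 0.708 between bright AECs and SECs. In each comparison the highest r was that of the libraries numbered 1. The check held no libraries of different numbers, so it cannot decide whether the numbers pair libraries, and the labels do not say. The main fits used no block, and the block was an alternative. Tests used limma 3.58.1 in R 4.3.3 with a variance trend, all groups fitted together, after adding 1 RPKM and taking log2, for genes that reached 0.1 RPKM in 3 or more libraries. The AEC contrast is the mean of both fractions minus SECs. Ratios were tested by exact permutation in Python 3.11.15. Scripts were tested on simulated data. The exact test on counts that the study used was not repeated. Recovered reads were tested by voom as an alternative.

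The 5 members and the lists were chosen with earlier results of these data known. Named beside the members were up to 4 called genes of each list, *Mcph1*, and the 3 genes most like each member. *Cdh5*, *Kdr*, *Nos3*, *Angpt4*, *Kcnj8* and the ETS factors were named after their values were seen. Alternatives covered the pseudocount, filter, scaling, variance model, voom, library weights, replicate number and libraries left out. Scaling to the pan-endothelial markers was added after seeing the data.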

Additional observations from a re-analysis of the deposited data

How the results depend on the processing

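Across 21 or 22 alternatives for each comparison, 0 of the 5 members were called in any of them. The nearest was *Ptprb* in AECs against SECs with weights per library (limma adjusted p = 0.0516, with 0.722 the highest over its alternatives). Of the members' 435 fold changes under these alternatives 416 kept their direction and side of the threshold and 19 changed sign. Calls of the ratios were judged here by an unadjusted exact permutation p under 0.05, and the adjustment over the 3 ratios was not repeated. By that measure *Tie1* to *Tek* kept its direction and call in each alternative except libraries 3 and 4 alone (1.15). The same held for *Ptprb* to *Tek* (1.77 there). Without any 1 of the SEC libraries both ratios had an exact permutation p of 0.0357, against 0.0119 with all libraries, so their adjusted calls are not shown to hold there. *Ptprb* to *Tek* also had 0.0357 without dim AEC library 1. Leaving out 1 library gave differences of 1.14 to 1.33 for *Tie1* to *Tek*, 1.67 to 2.02 for *Ptprb* to *Tek* and -2.11 to -1.27 for *Angpt2* to *Angpt1*, whose difference was -2.62 with 0.1 RPKM added and -1.0 with libraries 3 and 4.

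*Angpt1*, with 0 or 1 read in 2 AEC libraries, changed sign on the deposited log2 values without a pseudocount, to -0.28 in AECs against SECs and -0.74 in dim AECs against SECs. Between bright and dim AECs, *Ptprb* had 0.15 with weights per library, 0.01 by voom and 0.43 with the pan-endothelial scale, *Angpt1* had -0.01 by voom and -0.11 with libraries 3 and 4, and *Angpt2* had -0.24 with libraries 3 and 4. *Tek* in dim AECs against SECs had 0.08 with libraries 3 and 4. Leaving out 1 library gave, between bright and dim AECs, -1.19 to 0.04 for *Tek*, -1.19 to 0.04 for *Tie1*, -0.43 to 0.67 for *Angpt1*, -0.75 to 0.64 for *Angpt2* and -0.66 to 0.59 for *Ptprb*. It gave -0.11 to 0.96 for *Tie1* in bright AECs against SECs and -0.69 to 0.26 for *Tek* in dim AECs against SECs. The cause of these changes was not tested. The filter, the variance model and the library weights do not enter the ratios.

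With the replicate block 0 of the 5 members were called in any comparison. In each comparison with SECs 3 of 5 had an unadjusted p under 0.05 by limma. Of all 16364 genes 3266 (AECs), 3501 (bright AECs) and 2486 (dim AECs) had one. The ratio of *Angpt2* to *Angpt1* differed by -1.74 with an exact permutation p of 0.037, against 0.131 without the block. Over all genes, calls in AECs against SECs numbered 807. They numbered 1333 with the block, 1717 with weights per library, 380 on the pan-endothelial scale and 307 to 971 when 1 library was left out, the lowest without SEC replicate 4. Bright AECs against SECs gave 750, with 1391, 2065, 361 and 303 to 870 in the same settings, and dim AECs against SECs gave 319, with 644 by the block, 513 by weights, 136 by voom, 136 for libraries 3 and 4 and 89 to 408 when 1 library was left out. Counting error is largest for *Angpt1*, *Angpt2* and *Gata3*, each with 0 or 1 read in at least 1 AEC library. *Angpt1* had 0 reads in dim AEC library 3 (15142499 reads), 1 in bright AEC library 3 (33531572 reads) and 129 in dim AEC library 1 (13895090 reads). *Angpt2* had 1 read in dim AEC library 1. The part of library depth in these low counts was not tested.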
